A study of Homo sapiens with 6 samples.

Results

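The 41 genes described here encode enzymes that make and recycle glutathione, that carry electrons through thioredoxin and glutaredoxin, and that remove superoxide and peroxides. They were chosen by gene symbol, and all 41 were found among the 40205 gene symbols of the count table. RNA-seq was run on 3 Control samples of untreated cells and on 3 samples treated with CLs, cationic liposomes made from the lipid DOTAP, cholesterol and a PEG-coupled lipid. The cells, labelled as HepG2 and so as a human liver cancer line, were plated 24 h beforehand, and the CLs group then received CLs for 24 h at a dose that the sample labels give as 120 μM. The published account writes this figure in μM in one place and in μg/ml in another, so the unit of the dose is uncertain. All 6 samples are of the same labelled cell line, with no genetic change stated, and the labels do not say whether replicates came from separate cultures, so the p-values below measure the spread between these samples, which may be technical.

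Totals of 11418527 to 13998946 reads per sample were counted on genes, the largest in CLs-1. The defining genes of liver cells were at or near the limit of detection. Of 21 hepatocyte markers, 18 had at most 3 counts in every library except CLs-1, and APOC3, APOH, TTR and HP had 0 counts in all 6. Serum albumin, ALB, was read 8 times in CLs-1 and was at 0 in the other 5 libraries. The summed level of the 21 genes was 0.521 to 1.73 CPM in the Control samples, 0.519 and 0.263 CPM in CLs-2 and CLs-3, and 11.8 CPM in CLs-1. CPM, the usual RNA-seq unit, is here a gene's count relative to the TMM-scaled total of its library. CLs-1 also held more reads of some genes that were low or absent in the other libraries. The 8 erythroid markers summed to 33.1 CPM in CLs-1 and to at most 0.347 CPM elsewhere. The 8 steroidogenic markers summed to 34.0 CPM there and to at most 2.85 CPM elsewhere, where CYP11A1 was still read 11 to 29 times. The 8 fibroblast markers summed to 730.0 to 1098 CPM in the Control samples and to 808 to 954 CPM in the CLs samples, most of it COL3A1, while COL1A2 was read 1044 times in CLs-1 and no more than 2 times elsewhere. The 8 leukocyte markers summed to 13.4 to 23.5 CPM over the 6 libraries, nearly all of it CD68. The 6 endothelial markers summed to 0.0864 to 3.69 CPM, highest in Control-3, where CDH5 was read 36 times against no more than 1 time elsewhere. PTPRC had no more than 1 count, and CD3E, MS4A1, KDR and CLDN5 were at 0.

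Glutathione is a small sulfur-containing peptide, and its thiol is the main soluble reductant of most cells. Glutathione peroxidases use it to reduce hydrogen peroxide and lipid peroxides, glutathione transferases attach it to electrophiles, and glutathione reductase returns the oxidized form with electrons from NADPH. The thioredoxin system runs beside it, with thioredoxin reductases feeding thioredoxin and, through it, the peroxiredoxins. Superoxide dismutases turn superoxide into hydrogen peroxide, which catalase splits in peroxisomes. Liver is rich in these enzymes because it handles drugs and oxidized lipids, and cationic lipid particles have been studied as a source of oxidative stress.

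None of these genes passed the criteria between the CLs and Control groups, although most had higher estimates with CLs. Enough reads for a test were present for 36 of the 41, and 31 of the 36 had a positive log2 fold change, against 52.1% of the 15047 genes tested, and 5 had a negative one, against 47.9%. The median log2 fold change over the 36 was 0.18, against 0.01 over all genes tested, and the range was -0.29 to 0.57. Between samples of a group, the median deviation of the 36 had an SD of 0.164 on the log2 scale, nearly as large as 0.18. A gene was called when its adjusted p in the quasi-likelihood test of edgeR (Benjamini-Hochberg, over all genes) was under 0.05 and its fold was above 1.5 or below 0.67. Of the 36, 0 were called, against 13 of all 15047 genes, which is 0.0864% (0.0133% higher and 0.0731% lower). At an unadjusted p under 0.05 there were 2 members higher, CAT and MGST1, against 2.19% of all genes, and 0 lower, against 3.62%. In DESeq2's Wald test 0 of the 41 were called, against 0.409% of the 25432 genes with a read. GSTM2, GPX2, GPX3, GPX7 and SOD3 had no adjusted p in that test and so could not be called. Of the 41, 4 were higher at an unadjusted p under 0.05 in the same test, against 1.07%. These were CAT, MGST1, PRDX1 and GPX2, and the last rests on 22 counts in CLs-1.

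The CLs samples lay wholly above the Control samples in 4 of the 36, CAT, MGST1, TXN and GSTO1, against 5.34% of all genes. They lay wholly below in 1, GPX4, against 6.18% of all genes. The smallest p that an exact two-sided permutation of 3 and 3 samples can give for any single gene is 0.10. In bulk RNA, fewer cells of a kind and less RNA per cell cannot be told apart.

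**Figure D1:**
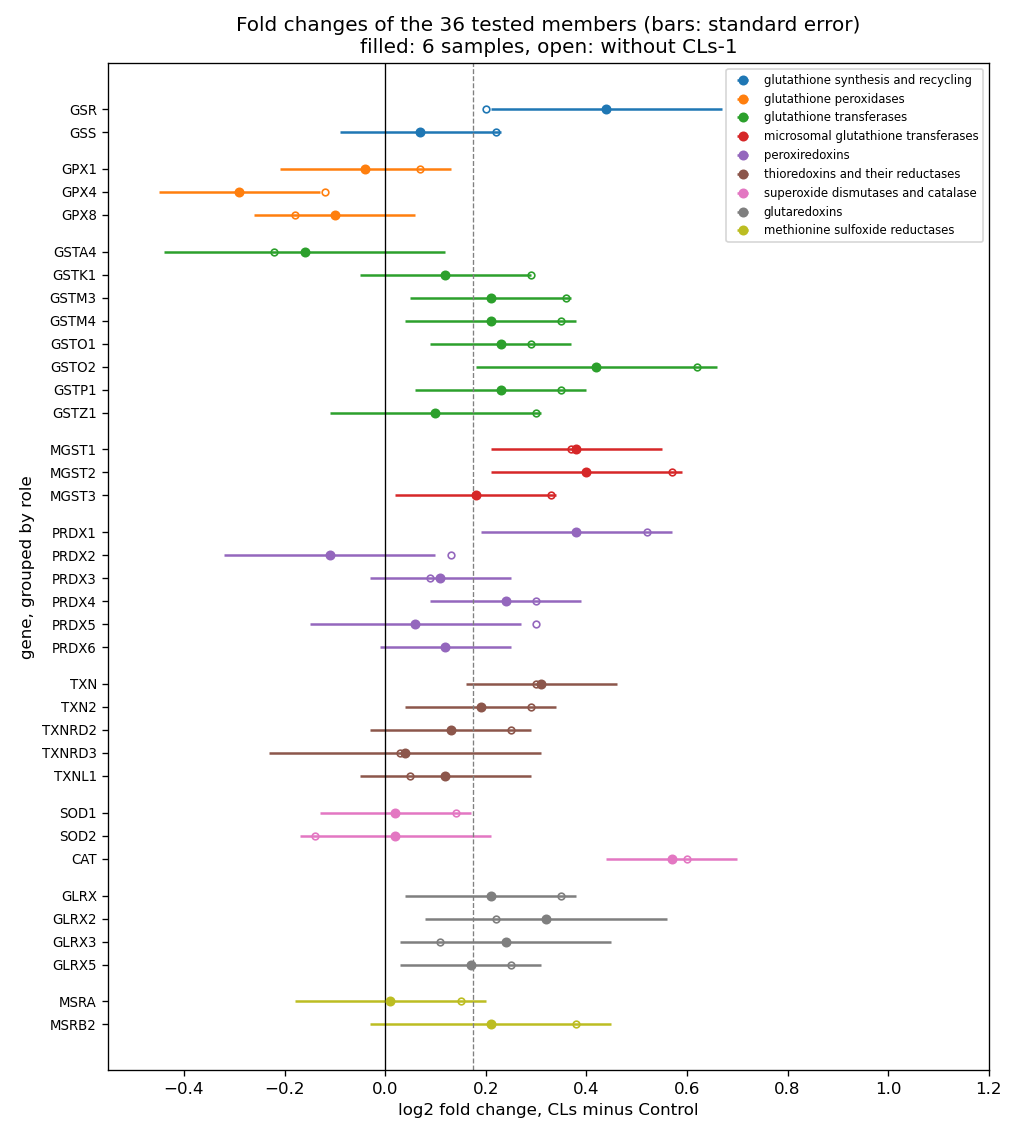
Log2 fold changes, CLs minus Control, of the 36 tested genes by role, as filled points with the standard error from edgeR as bars. Open points are the values without CLs-1 and the dashed line is the median of 0.18, and CAT, at 0.57, is the member farthest to the right.

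CAT, the gene of catalase, showed the clearest separation. Its CPM was 50.6, 52.4 and 53.9 in Control-1 to Control-3 and 74.8, 73.6 and 85.0 in CLs-1 to CLs-3. The 3 Control samples lay close together, and each CLs sample was well above them. The group means were 52.3 ± 1.66 CPM for Control and 77.8 ± 6.23 CPM for CLs (SD, n = 3 in each), a log2 fold change of 0.57 with a standard error of 0.13. Its adjusted p was 0.201 in edgeR's quasi-likelihood test and 0.0287 in DESeq2's Wald test, where the fold was also short of 1.5, and it ranged from 0.0287 to 0.709 over the 14 alternatives run. CAT was the only member with an adjusted p under 0.05 in any of these fits. Without CLs-1 its log2 fold change was 0.60, and over the fits that each left out 1 sample it was 0.50 to 0.61.

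The superoxide dismutases gave no such separation. SOD1, the cytosolic copper and zinc enzyme, had 352, 323 and 289 CPM in the Control samples and 270.2, 379 and 329.7 CPM in the CLs samples. CLs-1 was the lowest of the 6 libraries and CLs-2 the highest. Its log2 fold change was 0.02 with a standard error of 0.15. SOD2, the mitochondrial manganese enzyme, had 32.3 ± 6.09 CPM in the Control group and 32.8 ± 6.09 CPM in the CLs group (SD, n = 3 in each). SOD2 shares exons in GENCODE release 29 with ACAT2 and WTAP on the other strand, and whether reads were counted by strand is not stated. On its own strand it shares exons with SOD2-OT1 and with a second entry named SOD2. SOD3, the secreted enzyme, had at most 1 count in any library.

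**Figure D2:**
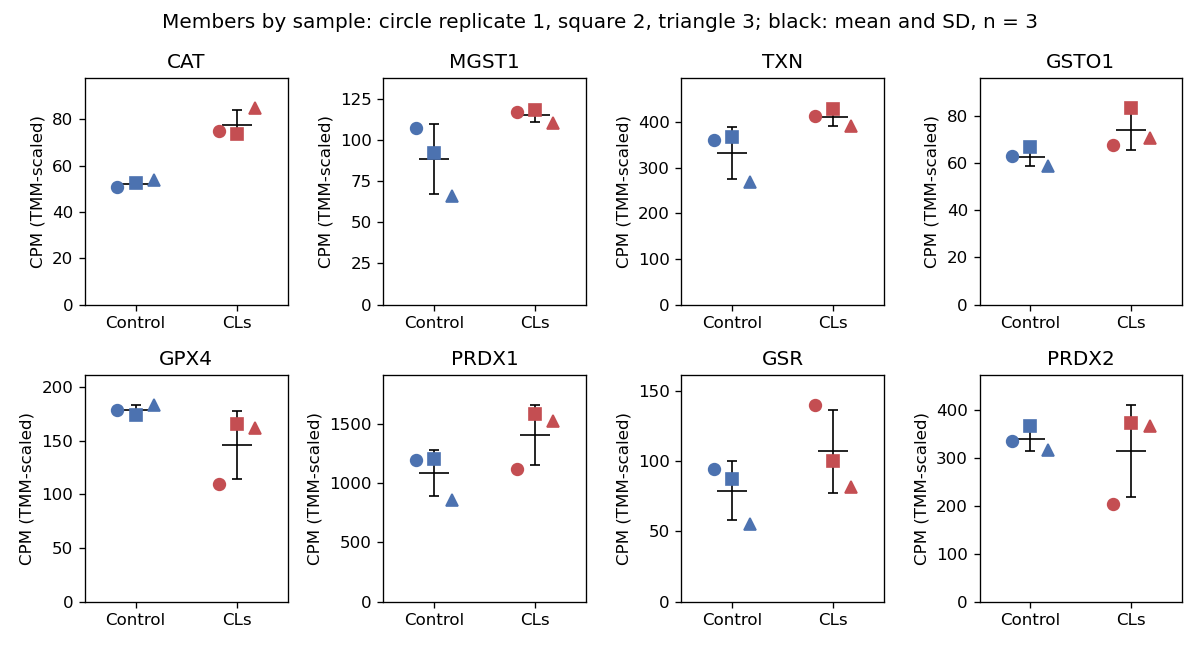
TMM-scaled CPM of 8 genes in each sample (circle, square and triangle are replicates 1, 2 and 3), with the mean and SD of each group in black and axes that start at 0. In CAT, MGST1, TXN and GSTO1 the CLs points lie above all Control points, in GPX4 below them, and in GPX4 and PRDX2 CLs-1 lies far under CLs-2 and CLs-3.

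MGST1 is a membrane-bound glutathione transferase and peroxidase of the endoplasmic reticulum and outer mitochondrial membrane. Its CPM was 107, 92.0 and 65.9 in the Control samples and 117, 118 and 110.0 in the CLs samples. The CLs samples were close to each other, and the Control samples were spread, with Control-3 the lowest. The log2 fold change was 0.38 with a standard error of 0.17, an unadjusted p of 0.0492 and an adjusted p of 0.854 from edgeR. Without Control-3 it was 0.21, the lowest of the fits that left out 1 sample. MGST2, which can also make leukotriene C4, had 21.4, 23.1 and 19.6 CPM in the Control samples and 21.6, 33.8 and 29.4 CPM in the CLs samples. CLs-1 lay among the Control samples, and CLs-2 and CLs-3 lay above them. MGST2 had a log2 fold change of 0.40 with all samples (standard error 0.19), 0.57 without CLs-1 and 0.26 without CLs-2. MGST3 had 0.18 with all samples, 0.33 without CLs-1 and 0.08 without CLs-2.

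TXN encodes thioredoxin, the small dithiol protein that hands electrons to peroxiredoxins and ribonucleotide reductase. It had 362, 368 and 268 CPM in the Control samples and 414, 430.3 and 391 CPM in the CLs samples. Each CLs sample was above each Control sample, by the least margin between Control-2 and CLs-3. For TXN the log2 fold change was 0.31 with a standard error of 0.15 and an adjusted p of 0.88 from edgeR, and without Control-3 it was 0.17. TXN2, the mitochondrial thioredoxin, had a log2 fold change of 0.19, and those of TXNL1, a thioredoxin-like protein bound to the proteasome, and of the reductases TXNRD2 and TXNRD3 were 0.12, 0.13 and 0.04. In none of these 4 genes did the groups separate.

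Of the soluble glutathione transferases, 7 of the 8 tested had positive estimates and 0 passed the criteria. GSTO1, an omega-class enzyme that also reduces dehydroascorbate, had 63.1, 66.6 and 58.5 CPM in the Control samples and 67.5, 83.3 and 70.4 CPM in the CLs samples. The gap between the groups was under 1 CPM, between Control-2 and CLs-1. GSTO1 had a log2 fold change of 0.23 with a standard error of 0.14. GSTP1, the pi-class transferase that is abundant in many cultured tumor lines, had 265, 250.4 and 202 CPM in the Control samples and 228, 329.9 and 282 CPM in the CLs samples. CLs-1 fell inside the Control range, and CLs-2 and CLs-3 were above it. GSTO2 had the highest estimate of the class, 0.42 with a standard error of 0.24, with 0.62 without CLs-1 and 0.24 without CLs-2. GSTP1 had a log2 fold change of 0.23, with 0.35 without CLs-1, 0.09 without CLs-2 and 0.12 without Control-3. GSTM3, GSTM4, GSTK1 and GSTZ1 had log2 fold changes of 0.21, 0.21, 0.12 and 0.10. Without CLs-1 these 4 were 0.36, 0.35, 0.29 and 0.30, and without CLs-2 they were 0.13, 0.12, 0.02 and 0.02. GSTA4, which conjugates the lipid peroxidation product 4-hydroxynonenal, was the only one with a negative estimate, -0.16 with a standard error of 0.28. GSTM2 had 6 to 11 counts per library and was not tested, and its exons overlap those of GSTM1 and GSTM4, so that reads could have been split among them.

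The 250 bases before the RefSeq start of the 4 genes whose CLs samples lay above all Control samples are shown here, together with those of GSTP1, so that their start regions can be compared. The sequences are those of build GRCh38.p14, while the authors' notes name hg19, and they were matched by symbol. Capitals mark TGACNNNGC, the core of the antioxidant response element bound by NRF2, searched on both strands.
CAT (chr11:34438684-34438933, plus strand): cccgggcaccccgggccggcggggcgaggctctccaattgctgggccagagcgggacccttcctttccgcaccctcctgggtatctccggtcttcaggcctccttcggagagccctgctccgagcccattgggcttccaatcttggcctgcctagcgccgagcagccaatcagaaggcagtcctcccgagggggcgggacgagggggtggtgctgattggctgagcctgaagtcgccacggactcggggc
MGST1 (chr12:16347395-16347644, plus strand): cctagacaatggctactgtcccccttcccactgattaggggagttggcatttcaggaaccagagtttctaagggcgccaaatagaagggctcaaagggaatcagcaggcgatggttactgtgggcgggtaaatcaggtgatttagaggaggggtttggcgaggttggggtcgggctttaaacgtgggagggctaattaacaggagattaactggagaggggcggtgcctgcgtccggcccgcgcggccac
TXN (chr9:110256508-110256757, minus strand): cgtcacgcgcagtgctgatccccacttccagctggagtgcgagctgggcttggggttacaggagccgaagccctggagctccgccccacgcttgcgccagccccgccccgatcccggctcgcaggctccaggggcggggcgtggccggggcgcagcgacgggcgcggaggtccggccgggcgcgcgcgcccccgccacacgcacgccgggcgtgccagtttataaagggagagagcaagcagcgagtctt
GSTO1 (chr10:104254642-104254891, plus strand): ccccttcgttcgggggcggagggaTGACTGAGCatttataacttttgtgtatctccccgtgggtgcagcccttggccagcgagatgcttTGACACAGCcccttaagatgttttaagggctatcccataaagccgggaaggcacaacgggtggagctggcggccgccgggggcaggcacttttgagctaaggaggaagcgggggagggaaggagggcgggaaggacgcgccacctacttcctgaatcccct
GSTP1 (chr11:67583562-67583811, plus strand): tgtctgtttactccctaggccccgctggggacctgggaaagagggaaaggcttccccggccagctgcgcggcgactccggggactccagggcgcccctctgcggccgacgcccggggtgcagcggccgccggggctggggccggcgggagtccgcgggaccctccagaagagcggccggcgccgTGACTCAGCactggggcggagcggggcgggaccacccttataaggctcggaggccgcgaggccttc
The core was matched at 226 and 161 bases before the start in GSTO1 and at 66 bases in GSTP1, where the match contains the AP-1 motif TGACTCA. It was not matched in the windows of CAT, MGST1 and TXN, which says only that these letters are absent there. Promoters were matched for 32 of the 41 genes, and 5 of the 32, namely GPX2, GSTA4, GSTO1, GSTP1 and TXNL1, held the core, 15.6% against 10.9% of all 35116 promoters. TGACTCA was found in 1 of the 32 and in 4.2% of all promoters.

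Of the 6 glutathione peroxidases, 3 had enough reads to be tested. All 3 had negative estimates, 0 passed the criteria, and the sign of GPX1 and GPX8 changed in fits that left out 1 sample. GPX4, the selenoenzyme that reduces lipid hydroperoxides in membranes and restrains ferroptosis, had 179, 174 and 183 CPM in the Control samples and 109.9, 166 and 162 CPM in the CLs samples. Each CLs sample was below each Control sample, and CLs-1 was far below the other 2. GPX4 had a log2 fold change of -0.29 with a standard error of 0.16 and an adjusted p of 0.924 from edgeR, and without CLs-1 it was -0.12. GPX1, the abundant cytosolic selenoenzyme, and GPX8, an enzyme of the endoplasmic reticulum that uses cysteine, had log2 fold changes of -0.04 and -0.10. GPX1 had a positive value, 0.07, without CLs-1.

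The other 3 peroxidases were near or under 3 counts. GPX2, best known from the gut lining, had 1, 1 and 0 counts in the Control samples, 22 counts in CLs-1 and 2 counts in each of the other CLs samples. GPX3, the secreted plasma enzyme, was read 9 times in CLs-1 and no more than once elsewhere. GPX7, an enzyme of the endoplasmic reticulum, was read 2 times, both in CLs-1. What reads there were of these genes thus came mostly from CLs-1, the library with the most erythroid, steroidogenic and COL1A2 reads, whose part in these counts was not tested. A library of this depth shows 3 counts as 0.208 to 0.263 CPM, and such floors cover counting error only.

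The peroxiredoxins were the most abundant class. PRDX1, a cytosolic enzyme that passes electrons from thioredoxin to hydrogen peroxide, had 1195, 1203 and 859.7 CPM in the Control samples and 1119, 1585 and 1522 CPM in the CLs samples. Control-3 was the lowest and CLs-1 lay among the Control samples. PRDX1 had a log2 fold change of 0.38 with a standard error of 0.19, and it was 0.52 without CLs-1 and 0.23 without Control-3. PRDX1 shares exons with MMACHC on the other strand. PRDX2 had 335, 367 and 317 CPM in the Control samples and 204, 374 and 367 CPM in the CLs samples. PRDX5, found in mitochondria and peroxisomes, had 135, 149 and 164 CPM and 99.8, 189 and 178 CPM. In both genes CLs-1 was the lowest library of all 6. CLs-2 and CLs-3 were above each Control sample in PRDX5, while in PRDX2 CLs-3 and Control-2 were level at 3 digits. PRDX2 had a log2 fold change of -0.11 with all samples and 0.13 without CLs-1, and PRDX5 had 0.06 and 0.30. PRDX3 of mitochondria, PRDX4 of the endoplasmic reticulum and PRDX6, which also acts on phospholipids, had 0.11, 0.24 and 0.12.

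GSR, glutathione reductase, had 94.8, 87.1 and 55.1 CPM in the Control samples and 140.2, 100.1 and 81.8 CPM in the CLs samples. The groups overlapped, since CLs-3 was under Control-1 and Control-2. CLs-1 was the highest library here, unlike in the peroxiredoxins, and Control-3 the lowest. The log2 fold change was 0.44 with a standard error of 0.23, 0.20 without CLs-1 and 0.24 without Control-3. With both libraries left out, an alternative chosen after the data were seen, it was -0.0002. GSS, glutathione synthetase, had 136, 135 and 129 CPM in the Control samples and 109.8, 161 and 149.8 CPM in the CLs samples, with CLs-1 below and CLs-2 and CLs-3 above all Control samples.

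The 4 glutaredoxins, which reduce glutathione-protein disulfides or carry iron-sulfur clusters, had log2 fold changes between 0.17 and 0.32. GLRX3, the most abundant by CPM, had 75.5, 59.3 and 41.8 CPM in the Control samples and 81.2, 71.6 and 55.3 CPM in the CLs samples. Both groups were wide, and they overlapped. Its log2 fold change of 0.24 was 0.11 without CLs-1 and 0.04 without Control-3. GLRX, GLRX2 and GLRX5 had 0.21, 0.32 and 0.17, with standard errors of 0.17, 0.24 and 0.14. Leaving out 1 sample gave 0.12 to 0.35 for GLRX, 0.14 to 0.47 for GLRX2 and 0.10 to 0.25 for GLRX5. The methionine sulfoxide reductases MSRA and MSRB2, which repair oxidized methionine, had 0.01 and 0.21. MSRB2 had 13.3, 20.2 and 25.4 CPM in the Control samples and 17.2, 25.2 and 25.8 CPM in the CLs samples, and the Control samples alone covered most of that range.

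Levels of different genes were compared per kilobase of exon, with exon lengths from GENCODE release 29. PRDX1 was at the top in both groups, with 868 ± 157 CPM per kilobase in the Control group and 1125 ± 202 in the CLs group (SD, n = 3 in each). TXN, PRDX2 and SOD1 followed in the Control group with 383 ± 64.8, 344 ± 25.7 and 333 ± 32.4 CPM per kilobase, and these 3 neighbors did not differ beyond their spread. GSTP1 and PRDX6 came next, with 249 ± 34.1 and 239 ± 19.6. CAT had 22.7 ± 0.72 in the Control group and 33.8 ± 2.71 in the CLs group. The lowest of the tested genes were SOD2, TXNRD3 and GSTO2, with 2.02, 2.00 and 1.32 in the Control group. The SOD2 entry used here, which is not the only entry of that name, is annotated with 16008 exonic bases. That is the most of these genes, which lowers the value of SOD2 on this scale.

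**Figure D3:**
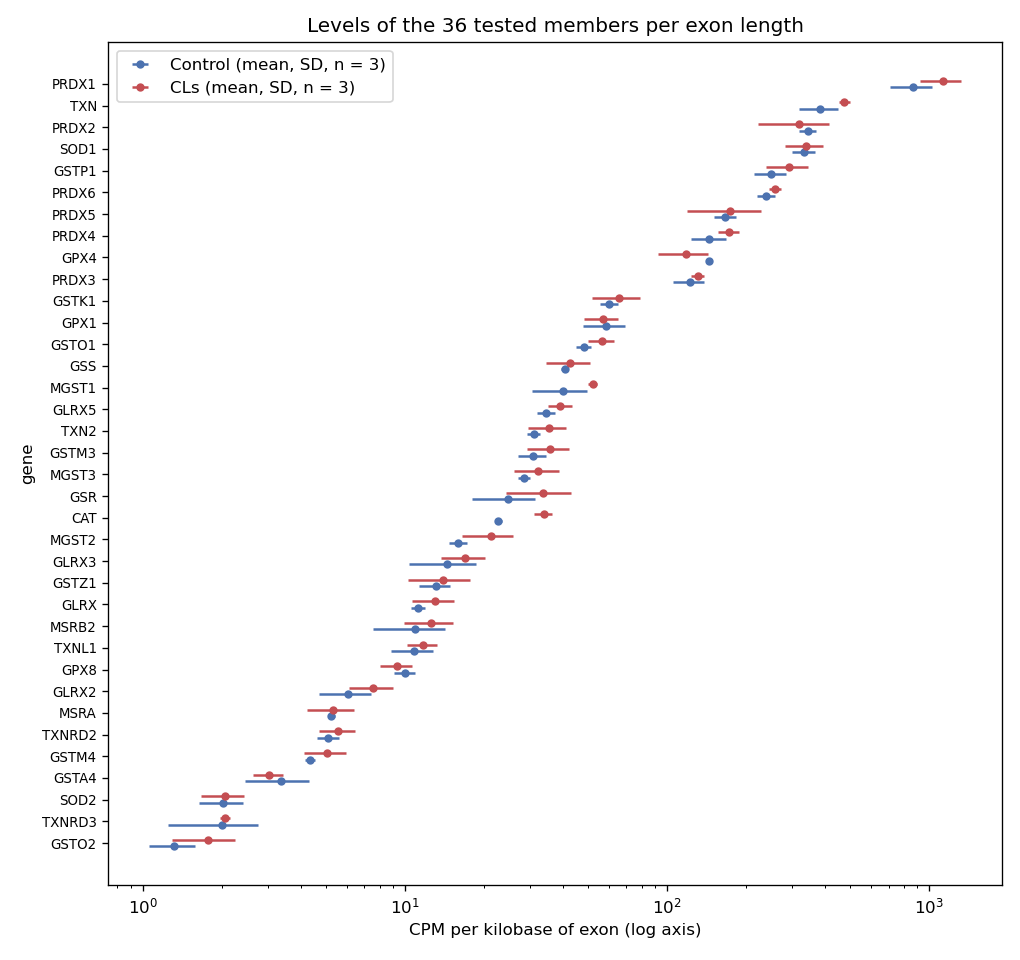
Mean CPM per kilobase of exon with the SD over 3 samples, on a log axis, for the 36 tested genes in the Control and CLs groups, ordered by the Control group. PRDX1 is highest at 868 and GSTO2 lowest at 1.32 in the Control group, and PRDX1 is also highest in the CLs group, at 1125.

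CLs-1 differed from the other CLs samples with exon length, lower in short genes and higher in long ones over all genes. CLs-1 was the lowest of the 3 CLs samples in 23 of the 36 tested genes, against 39.8% of all genes, and the highest in 7, against 39.9%. All genes tested were then split by exon length into 4 groups of like size. Over all genes tested, 86.5% of which had an exon length, the median log2 ratio of CLs-1 to CLs-2 and CLs-3 was -0.22 in the group with the shortest exons and 0.24 in the group with the longest. The redox enzymes are mostly short, with 20 of the 36 in the shortest group, and the median log2 ratio of the 36 was -0.37. That of the 20 shortest was also -0.37, below the -0.22 of their length group, and the 7 members of the next group had -0.43, against -0.08. The 5 members of the third group had 0.04, against 0.07, and the 4 in the longest had -0.09, against 0.24. PRDX5 and PRDX2 had the lowest ratios, -0.88 and -0.86, while CAT, MGST1 and TXN had -0.08, 0.04 and 0.01. The part of length or RNA quality in these values was not tested. Among the Control samples Control-3 was the lowest in 22 of the 36 genes, against 40.1% of all genes. Its median log2 ratio to the other 2 was -0.15 over the 36, close to the -0.14 of all genes in the shortest group.

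**Figure D4:**
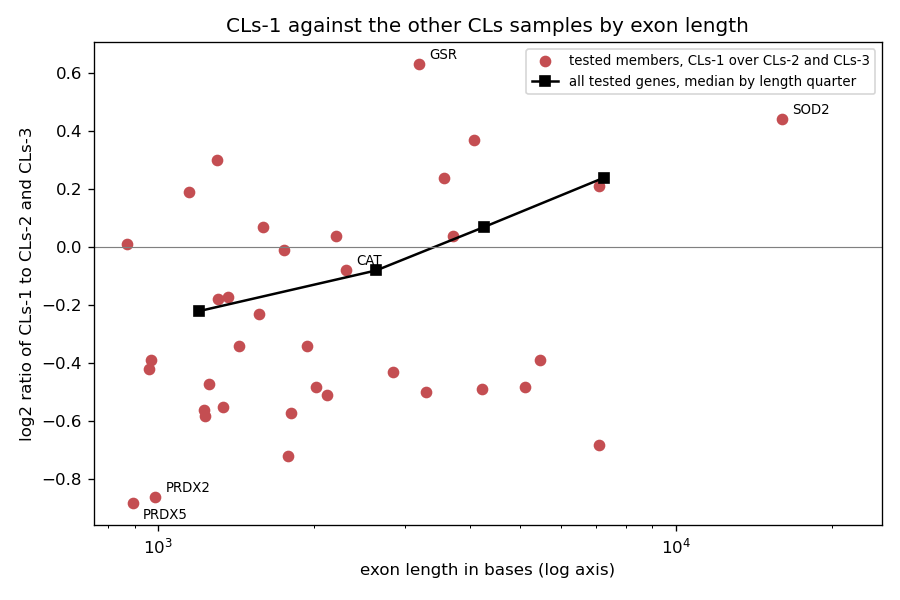
Log2 ratio of CLs-1 to CLs-2 and CLs-3 against exon length in bases on a log axis, with a red point for each tested redox enzyme and black squares for the medians of all tested genes in each of the 4 length groups. The black line runs from -0.22 to 0.24, and PRDX5 and PRDX2 lie lowest, at -0.88 and -0.86.

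The counts depended on which library was left out, and none was called in any of these fits. Without CLs-1 the median log2 fold change of the 36 was 0.27, and 32 had positive values, against 50.4% of all genes. An unadjusted p under 0.05 was reached by 13, all higher, against 3.55% of all genes in that direction in the same fit, and 0 were lower, against 5.47%. They were CAT, MGST2, MGST3, PRDX1, PRDX5, TXN2, GLRX and 6 soluble transferases, GSTK1, GSTM3, GSTM4, GSTO1, GSTO2 and GSTP1. CLs-2 and CLs-3 were both above all Control samples in 21 of the 36, against 13.6% of all genes, and both below in 1, GPX4, against 13.7%. Adjusted over all genes, the lowest p of the members was 0.215, for CAT. The other 5 fits that left out 1 sample gave 1 to 3 members higher at an unadjusted p under 0.05, with 1.56% to 2.66% of all genes higher in those fits. Without CLs-2 there was 1, and the median was 0.09.

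Other genes of or near these pathways were taken as lists of glutathione, thioredoxin, selenoprotein and NRF2 genes, 80 genes in all. Of the 73 with enough reads, 0 passed the criteria in edgeR, against 0.0864% of all genes. At an unadjusted p under 0.05, 10 were higher and 2 lower, against 2.19% and 3.62% of all genes, and 1, AKR1B10, passed in DESeq2's Wald test. AKR1B10 had 1.65, 2.85 and 1.46 CPM in the Control samples and 8.72, 2.68 and 7.62 CPM in the CLs samples, with overlap. In the NRF2 list, 22 of 23 estimates were positive, against 52.1% of all genes, with a median of 0.57. At an unadjusted p under 0.05 in edgeR, 9 of the 23 were higher, against 2.19% of all genes, and 0 lower, against 3.62%. The CLs samples lay wholly above the Control samples in 7, against 5.34% of all genes. In some of these genes Control-3 was the lowest library. OSGIN1 had 31, 32 and 7.12 CPM in the Control samples and 43.3, 48.9 and 34.7 CPM in the CLs samples, without overlap. SLC7A11 had 186, 204 and 70.9 CPM and 377, 203 and 234 CPM, with overlap. In ABCC3 Control-3 was instead the highest Control sample, with 88.5, 138 and 229 CPM in Control-1 to Control-3. GCLC and GCLM, the subunits of the enzyme that limits glutathione synthesis, had log2 fold changes of 0.73 and 0.57 with standard errors of 0.21 and 0.28. GCLC had 75.3, 75.3 and 44.0 CPM in the Control samples and 124, 88.2 and 112 CPM in the CLs samples, without overlap. GCLM had 46.8, 49.6 and 22.1 CPM and 77.9, 51.3 and 46.0 CPM, with overlap. Control-3 was the lowest library in both. GCLM had a log2 fold change of 0.28 without Control-3, 0.30 without CLs-1 and 0.01 without both, and GCLC had 0.52, 0.62 and 0.41.

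TXNRD1, the cytosolic thioredoxin reductase, had 1217, 1208 and 686 CPM in the Control samples and 1552, 1182 and 1080 CPM in the CLs samples, and the groups overlapped. SRXN1, which repairs overoxidized peroxiredoxins, had 327, 301 and 125 CPM and 406, 448 and 346 CPM, without overlap. NQO1, a quinone reductase, had 525, 601 and 566 CPM and 647, 805 and 1096 CPM, again without overlap. HMOX1, heme oxygenase, had 41.4, 40.0 and 15.2 CPM and 89.1, 78.9 and 55.5 CPM, also without overlap. The log2 fold changes of TXNRD1, SRXN1, NQO1 and HMOX1 were 0.29, 0.67, 0.59 and 1.21, with adjusted p-values from edgeR of 0.983, 0.801, 0.462 and 0.288. Without Control-3, TXNRD1 had 0.07 and SRXN1 0.35, without CLs-1 TXNRD1 had 0.13, and without CLs-3 NQO1 had 0.36. For HMOX1 the fits that left out 1 sample gave 0.87, without Control-3, to 1.43, without Control-1. Without both CLs-1 and Control-3 HMOX1 had 0.72. HMOX1 was called with the replicate number as a block, where edgeR gave 1.30 on the log2 scale and 0.00468 as the adjusted p, and also with no low-count filter. Its adjusted p ranged from 0.000543 to 0.695 over the 14 alternatives. GCLC was also called with no low-count filter, at an adjusted p of 0.0249 from edgeR, and ranged up to 0.7. NFE2L2, which encodes NRF2 itself, had 140.3, 139.8 and 129 CPM and 154, 124 and 109 CPM, and KEAP1, its repressor, had 211, 212 and 166 CPM and 185, 229 and 218 CPM. The groups overlapped in both regulators.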

How the data were processed

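The Ion Proton reads were mapped by the authors with MapSplice, and what the authors deposited is a table of raw counts per gene symbol. The submitters' processing notes also name HTSeq 0.6.1 and the builds hg19 and GRCh37, with no role given, and the handling of reads that match several places is not given in the sources used here. The file holds no coordinates. Groups and replicate numbers were taken from the sample titles, and all 6 columns were used.

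Genes were kept by filterByExpr (15047 of them) and scaled by TMM, and the groups were compared by quasi-likelihood tests (edgeR 4.0.16, R 4.3.3) with condition as the only term and Benjamini-Hochberg adjustment over all genes tested. Standard errors were derived from the F statistic. The criteria were the authors' own, a fold above 1.5 or below 0.67 with an adjusted p under 0.05. The authors' own test, EBSeq, was not run here. The fit was first tested on simulated data. Alternatives were DESeq2 1.42.0, other scaling and filters, no fold criterion, a block on replicate number and leaving out single samples. Leaving out CLs-1 and Control-3 together was added after the data were seen.

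The 41 genes and all lists were chosen with earlier results of these data known, so no p was adjusted over a list alone and no set test was run. Values in every sample were given for tested members with an unadjusted p under 0.05 in the main edgeR fit or groups apart, and for the most abundant gene of each role. For members too low to test, counts or their limits were given. The sample values of GSR, MGST2, PRDX2 and PRDX5, the estimates of GSTO2 and the group means of SOD2 were added after they were seen. Exon lengths are unions over GENCODE release 29 basic transcripts.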

Additional observations from a re-analysis of the deposited data

How the results depend on the processing

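No member was called under any of the 15 alternatives, and the members' median log2 fold change was 0.09 to 0.27. The SD of the members' median deviation between single samples, 0.164, was nearly as large as the 0.18 of the main fit, a difference between groups. Staying within that SD therefore says little, and the lowest median, 0.09, was that without CLs-2. The number of genes called, 13 with all samples in edgeR, was 104 in DESeq2, 8 with library size only, 171 with no low-count filter, 68 with the replicate block, 3 to 7 with 1 sample left out and 102 without both CLs-1 and Control-3. Of the other pathway genes, 0 were called with all samples in edgeR, 1 in DESeq2 (AKR1B10), 4 with no low-count filter (HMOX1, GCLC, AKR1B10 and ABCC2), 1 with the replicate block (HMOX1) and 1 without both libraries (FTL). Deviations from the group means correlated by 0.111, 0.0987 and 0.305 for samples numbered 1, 2 and 3. For samples of unlike number the correlations ran from -0.201 to 0.0783, lower than each of these. Deviations within a group sum to 0, so positive values for like numbers force lower ones for unlike numbers, and the difference is partly built in. The labels do not say whether the numbers stand for pairs, and the main fit did not take them as such. GSR had an unadjusted p from edgeR of 0.08 in the main fit and 0.00747 with the block. With the block 0 of 36 members were called, 5 were higher at an unadjusted p under 0.05, against 3.1% of all genes, and MSRA changed sign, to -0.002. Small estimates changed sign when 1 sample was left out, with ranges of -0.04 to 0.22 in GSS, -0.15 to 0.11 in GPX1, -0.18 to 0.01 in GPX8, -0.28 to 0.09 in GSTA4, -0.05 to 0.30 in GSTZ1, -0.25 to 0.13 in PRDX2, -0.11 to 0.30 in PRDX5, -0.17 to 0.37 in TXNRD3, -0.005 to 0.26 in TXNL1, -0.10 to 0.14 in SOD1, -0.14 to 0.17 in SOD2, -0.15 to 0.15 in MSRA, -0.01 to 0.44 in MSRB2, -0.23 to 0.03 in NFE2L2 and -0.004 to 0.19 in KEAP1. Without both CLs-1 and Control-3 the sign changed in GSR (-0.0002), GSTA4 (0.03), PRDX2 (0.08), PRDX3 (-0.02), TXNL1 (-0.08), GLRX3 (-0.09) and TXNRD1 (-0.10). The cause was not tested.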

Other observations

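By compartment, 31 of all 36 tested members being positive, the 9 mitochondrial enzymes (PRDX3, PRDX5, TXN2, TXNRD2, SOD2, GLRX2, GLRX5, MSRB2 and GSTK1) all had positive log2 fold changes, against 52.1% of all genes, from 0.02 to 0.32 with a median of 0.13, and 0 of the 9 had an unadjusted p under 0.05 in edgeR, against 2.19% of all genes higher. Of these 9, PRDX5, SOD2 and MSRB2 changed sign in fits that left out 1 sample. The count also depends on how genes were placed, since GPX1 (-0.04) and GPX4 (-0.29) were put under cytosol or several compartments. The 5 tested enzymes of the endoplasmic reticulum or other membranes had a median of 0.24. The 4 tested members that carry selenocysteine, GPX1, GPX4, TXNRD2 and TXNRD3, ranged from -0.29 to 0.13. The 8 genes that make selenocysteine or place it in proteins had a median of 0.01 and a range of -0.08 to 0.26, with 0 at an unadjusted p under 0.05.

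Among the other proteins of the thioredoxin fold and its partners, 16 of 25 tested had positive estimates, against 52.1% of all genes. NXN, the nucleoredoxin gene, was lower in each CLs sample than in each Control sample, at 36.9, 37.4 and 31.7 CPM against 52.7, 50.9 and 45.6 CPM. Its log2 fold change was -0.49 with a standard error of 0.14 and an adjusted p of 0.338 from edgeR. TXNDC15 had 37.2, 37.6 and 36.5 CPM in the Control samples and 45.4, 48.1 and 43.9 CPM in the CLs samples, without overlap. Its estimate was 0.30 on the log2 scale (edgeR's adjusted p 0.801). In the further glutathione list, GGT5, a gamma-glutamyltransferase that acts on leukotriene C4, had a log2 fold change of -0.81 with a standard error of 0.33 and an adjusted p of 0.775 from edgeR. GGT5 had 3.73, 4.49 and 8.32 CPM in the Control samples and 2.77, 2.77 and 3.94 CPM in the CLs samples, with overlap. These 3 genes were named after their values were seen.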
